A study of Arabidopsis thaliana with 121 samples.

Results

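The transcripts described here are those of the plastid genome, the small chromosome of the chloroplast, in rosette leaves of Arabidopsis thaliana. A plastid locus was taken as any locus whose identifier starts with ATCG, and it was a member where it had 10 or more counts in 3 or more libraries of its set. Of the 151 plastid loci in the count tables, 90 passed in the first set of libraries and 89 in the other, among 17943 and 17510 features of all kinds that passed the same rule. Altogether 86 loci passed in both sets, 4 only in the former and 3 only in the latter. A further 37 and 38 loci had counts but stayed under the rule, and 24 loci had no count in either set.

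The study compared mutants of the chromatin remodeller DDM1 and of its partners CDCA7α and CDCA7β with the wild type (WT, Col-0) by 3′-tag mRNA-seq, in which oligo-d(T) primers copy RNA from an A-rich stretch or tail and each molecule carries an identifier. The first set, called the pools, held 39 libraries of 16 genotypes, each from pooled leaves of 3 plants of 31 days. The second, called the single plants, held 82 libraries of 17 groups, each from 1 leaf of 1 plant of 28 days. All plants were of the Col-0 background and grew in long days.

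The pools held WT (n = 3), cdca7α-1 with a T-DNA in the promoter (n = 3), cdca7α-2 with a T-DNA in the coding sequence (n = 2), the CRISPR lines cdca7β-1 (n = 3) and cdca7β-2 (n = 2), and the double mutants cdca7α cdca7β-1 and cdca7α cdca7β-2 (n = 2 each). They also held ddm1-2 homozygous for 1 (n = 2), 2 (n = 2) or 5 generations (n = 3), called first-, second- and fifth-generation ddm1, and 6 combinations of ddm1-2 with cdca7 mutations, namely cdca7α-1 (n = 2), cdca7α-2 (n = 2), cdca7β-1 (n = 3), cdca7β-2 (n = 3), cdca7α cdca7β-1 (n = 3) and cdca7α cdca7β-2 (n = 2). Per the paper, ddm1 cdca7α-2 was an F2 of a cross, in the first homozygous ddm1 generation, and ddm1 cdca7α-1 was in the second. The other combinations were in a later generation than fifth-generation ddm1. The single plants were WT (n = 5), cdca7α-2 (n = 3), cdca7β-1 (n = 6), cdca7α cdca7β-3 (n = 4) and primary transformants with a tagged CDCA7α transgene under its own promoter, among which the transgene level varies. In cdca7α cdca7β-3 the transgenes were full-length CDCA7 (n = 5), dCter (n = 7) and dNter (n = 6), which lack an end of the protein, the substitutions C183S C209S (n = 7) and R35A N42L (n = 6), and the promoter of another Arabidopsis accession intact (p6966, n = 5) or with a deletion (p6966 d4nt, n = 2, and p6966 d26nt, n = 7). Sister plants without the CDCA7 transgene formed a group of their own (no YFP, n = 2). In cdca7α-2 the transgenes were CDCA7 (n = 3), p6966 (n = 5), p6966 d4nt (n = 4) and p6966 d26nt (n = 5).

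The plastid genome encodes subunits of the photosystems, the cytochrome b6f complex, the ATP synthase and Rubisco, together with part of the plastid's own transcription and translation machinery, ribosomal RNAs and transfer RNAs. It is read by a bacterial-type polymerase, whose core is encoded in the plastid and which needs sigma factors and associated proteins (PAPs) from the nucleus, and by phage-type polymerases encoded in the nucleus. Plastid transcripts often span several genes, and a poly(A) tail on them marks RNA for decay instead of stabilizing it, so an oligo-d(T) library captures them differently from nuclear mRNA.

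Library totals ran from 2087906 to 4439880 counts in the pools and from 1194655 to 5206136 in the single plants. The summed nuclear leaf genes for photosynthesis took 2.39% to 14.6% of nuclear counts in the pools and 2.04% to 11.2% in the single plants. Flower and seed markers stayed at or under 0.000389% in the pools and at or under 0.128% in the single plants, and the root marker PYK10 at or under 0.000792% in both sets, so the defining markers were those of the labelled tissue.

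Plastid transcripts took a large and uneven share of the libraries. In the pools the share ran from 5.55% to 43.9% of all counts with a median of 12.5%, and in the single plants from 4.39% to 22.9% with a median of 11.9%. The 95% Wilson interval of a share was at most 0.0925 percentage points wide in the pools and 0.118 in the single plants, which covers counting error only. In bulk leaf RNA, more plastid RNA per cell and more cells rich in plastids cannot be told apart.

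The 3 WT pools had plastid shares of 10.6%, 8.40% and 26.5%, so a single genotype covered much of the range. The 5 WT single plants had shares of 14.6%, 9.48%, 8.37%, 13.1% and 9.53%. Among the mutant pools, the highest shares were 43.9% in cdca7α cdca7β-2 replicate 1, 38.8% in first-generation ddm1 replicate 2, 37.8% in ddm1 cdca7α-2 replicate 3 and 33.2% in ddm1 cdca7β-2 replicate 3. Each of these 4 libraries stood well above its partners, which had 24.1% in cdca7α cdca7β-2, 8.21% in first-generation ddm1, 13.9% in ddm1 cdca7α-2, and 14.6% and 10.97% in ddm1 cdca7β-2. The lowest share of the pools, 5.55% in ddm1 cdca7β-1 replicate 2, also sat beside 17.6% and 14.2% in the same genotype.

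**Figure D1:**
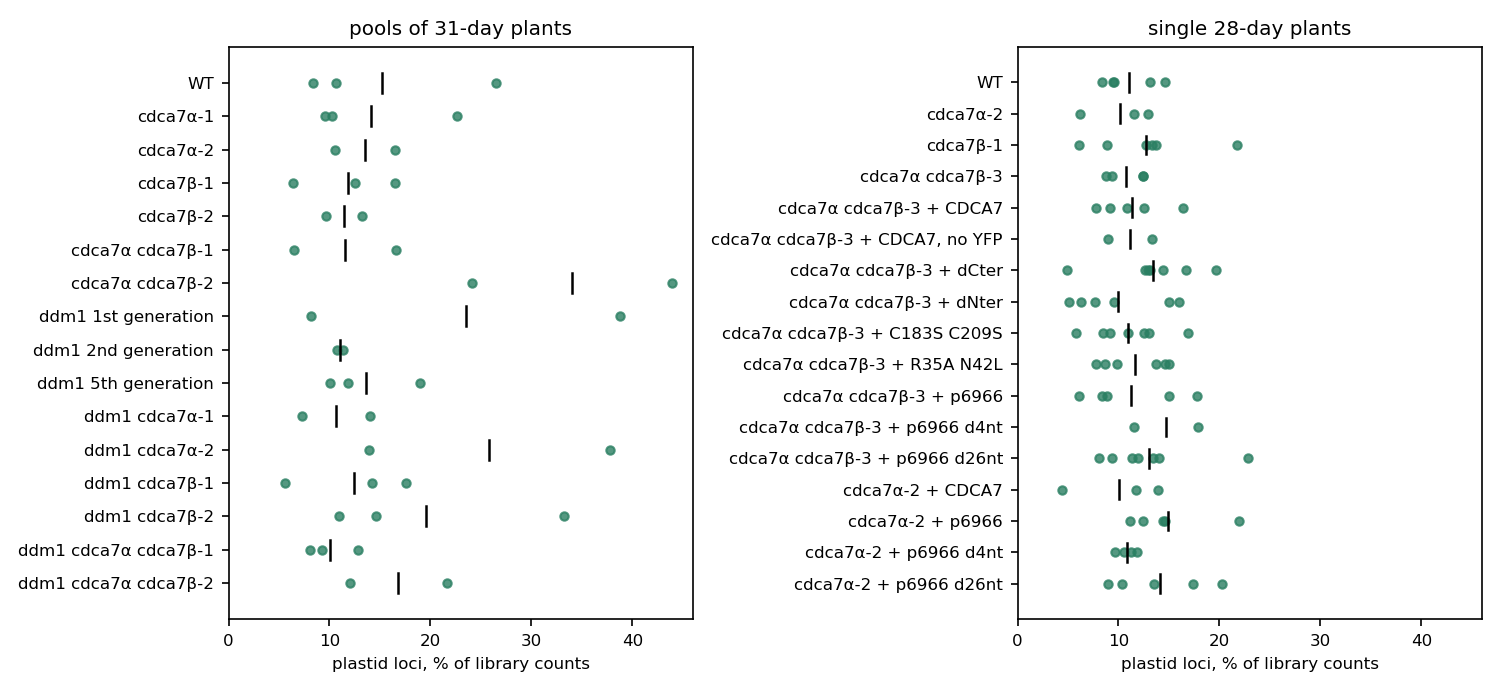
Plastid counts as a percentage of all counts in each library (x axis), by group (y axis), for the pools (left) and the single plants (right). Points are libraries and vertical bars are group means. The WT pools lie at 8.40%, 10.6% and 26.5%, and 4 pool libraries of 4 mutant genotypes exceed 30%.

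The share was compared as log2 of plastid counts over all other counts. Within a genotype its standard deviation was 0.913 in the pools and 0.586 in the single plants, against 0.602 and 0.230 between the genotype means. Genotype accounted for 37.9% of the sum of squares in the pools (permutation test over libraries, 100000 resamples, one-sided, p = 0.531) and for 13.9% in the single plants (p = 0.826). Differences between genotypes were therefore not larger than the spread between replicates.

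No group passed the test against WT in the share, and the libraries of every group overlapped those of WT. In the pools the largest difference was that of cdca7α cdca7β-2, at 3.16-fold (two-sided exact permutation test, p = 0.3, adjusted p = 0.964 over 15 genotypes), followed by ddm1 cdca7α-2 at 1.98-fold (exact permutation test, p = 0.4). With 2 or 3 libraries against 3 the smallest p is 0.1, so no pool genotype could reach 0.05, and differences of this size could not be told from none. In the single plants the largest was that of cdca7α-2 with p6966, at 1.41-fold (exact permutation test, p = 0.111, adjusted p = 0.992 over 16 groups). The 9 genotypes with ddm1 had a mean log2 ratio of -2.59 ± 0.539 (SD) and the 7 with DDM1 a mean of -2.59 ± 0.721, a difference of 1.00-fold (two-sided exact permutation test over genotype means, p = 0.996).

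The share of plastid counts moved with that of the other organelle. Mitochondrial loci took 0.0873% to 0.517% of the non-plastid counts in the pools and 0.0638% to 0.542% in the single plants. Across the pools this percentage and the log2 plastid ratio had a Pearson r of 0.845 and a Spearman rho of 0.808 (n = 39 libraries, permutation p = 1e-05, the smallest that 100000 resamples can give, adjusted p = 5e-05 over 5 measures). Across the single plants r was 0.721 and rho 0.783 (n = 82, permutation p = 1e-05, adjusted p = 5e-05). With each library centred on its genotype, r was 0.803 and 0.751, and without the 2 libraries farthest from the median it was 0.815 and 0.707. WT replicate 3 of the pools, with the highest plastid share of the WT, had 0.504% mitochondrial counts, against 0.164% and 0.159% in replicates 1 and 2. What the organelle shares have in common was not tested.

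The other 4 measures gave weaker or no relations. Library depth (log10 of the non-plastid counts) had r = 0.07 in the pools (permutation p = 0.675, adjusted p = 0.843) and -0.06 in the single plants (p = 0.592, adjusted p = 0.74). The nuclear photosynthesis list had r = -0.0035 and -0.0076 (permutation p = 0.983 and 0.947), and the share of transposable elements r = -0.076 and -0.08 (permutation p = 0.644 and 0.475). The senescence list (SAG12, SAG13, SEN1 and SGR1) had r = -0.32 in the single plants (rho = -0.32, permutation p = 0.00316, adjusted p = 0.0079). With each library centred on its group r was -0.45 and rho -0.39 (permutation test, adjusted p = 0.000825 and 0.00138). Without the 2 libraries farthest from the median r was -0.24 (permutation test, adjusted p = 0.0867) and rho -0.30 (adjusted p = 0.0208). In the pools it had r = -0.19 (permutation p = 0.248, adjusted p = 0.619).

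A few loci held nearly all plastid counts. These tags are counted at the 3′ side of the captured fragment and were not divided by transcript length, so what follows are shares of counts. The leading locus, annotated jointly as ATCG00930-ATCG00940-ATCG00950-ATCG00960-ATCG00970, held 65.3% of all plastid counts in the pools and 70.8% in the single plants. The 5 largest loci held 88.3% and 89.1%, and the 10 largest 96.7% and 95.5%. At the other end, 42 members of the pools and 29 of the single plants each held under 0.01% and together made up 0.182% and 0.144%.

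**Figure D2:**
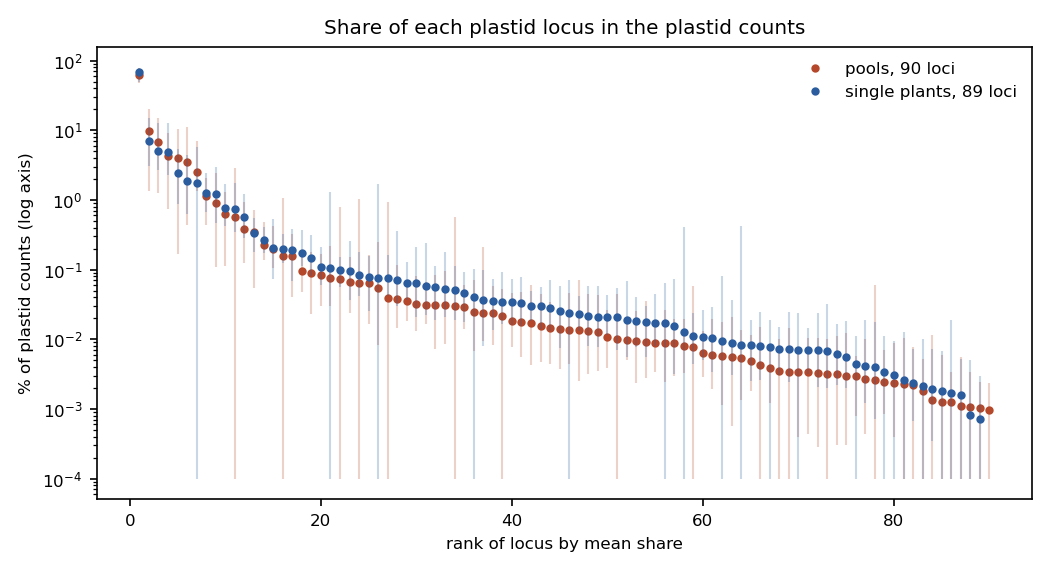
Share of each plastid locus in the plastid counts (y axis, log scale, in percent) by its rank (x axis), for the pools and the single plants. Points are means over libraries and vertical lines run from the lowest to the highest library, with values under 0.0001% drawn at that level. The first rank lies above 60% in both sets and the curve falls below 0.01% before its end.

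In the annotation 14 members of the pools and 11 of the single plants carry joined names. Loci whose joined names share identifiers were treated as families here, because the counting can divide a read between them. RefSeq lists 15 plastid symbols more than once. Reads can also be divided between such copies under unrelated names, which could not be paired here, so a family need not hold all of them. The largest, ATCG00910 to ATCG00980, had 20 loci in the tables, of which 10 passed the rule in the pools and 7 in the single plants. As a sum it held 58.5% to 91.2% of the plastid counts of a pool library and 55.2% to 85.7% of a single-plant library, with means of 74.0% and 75.7%.

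In the WT pools the leading locus ATCG00930-ATCG00940-ATCG00950-ATCG00960-ATCG00970 held 53.1%, 57.5% and 56.6% of the plastid counts, and in the WT single plants 65.5%, 62.5%, 53.2%, 71.8% and 66.8%. The next in the WT pools was ATCG01180 with 15.3%, 14.0% and 10.9%. It held only 2.36%, 1.20%, 3.62%, 2.40% and 1.91% in the WT single plants. The WT ranges of the 2 sets did not overlap for ATCG01180, but age, pooling and library set differ together between them and cannot be told apart. Whether ATCG01180 shares reads with a copy under another name was not checked.

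ATCG00220 held 7.98%, 7.38% and 4.08% of the plastid counts in the WT pools and 6.69%, 10.7%, 9.34%, 7.19% and 7.94% in the WT single plants, so that these ranges overlapped. ATCG00270-ATCG00280 followed in the single plants, with 3.99%, 6.69%, 7.47%, 4.82% and 5.72% in WT, and ATCG00920-ATCG00930 had 10.9%, 4.81%, 11.01%, 2.68% and 4.50% there. ATCG00940-ATCG00950-ATCG00960-ATCG00970 held 7.36%, 7.16% and 6.03% in the WT pools and had 0 counts in all 5 WT single plants, while ATCG00950-ATCG00960-ATCG00970-ATCG00980 held 3.71%, 2.22% and 11.1% in the WT pools. This last contrast lies within the family that shares reads, so the division of counts among its members is uncertain.

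The order of the loci was otherwise much the same in both sets, with a Spearman correlation of 0.917 between the mean shares of the 86 loci that passed in both. This is across loci, which are not independent replicates. Of the members, 6 are named in the RefSeq notes. ATCG01310, ribosomal protein L2 of the plastid ribosome, was the largest of these at 0.196% of the plastid counts in the pools and 0.332% in the single plants. ATCG00660 (ribosomal protein L20) held 0.0125% and 0.0342%, and ATCG00750 (ribosomal protein S11) held 0.0034% and 0.0073%. ATCG00670, the plastid-encoded subunit CLP P of the Clp protease, held 0.0064% and 0.0228%. A best-match note names ATCG00430 photosystem II reaction center protein G, a name whose function was not checked here. This locus held 0.0094% and 0.0253%. ATCG00530, a CemA-like protein related to proton extrusion, held 0.0088% and 0.0188%. All 6 thus took a larger share in the single plants than in the pools, with no test made between sets.

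Around the threshold, ATCG00070 had just 3 pool libraries at 10 or more counts (at most 20 counts in a library), and ATCG01060 lay just outside with 2 such libraries (163 counts, at most 12). In the single plants ATCG00870 was just inside with 3 libraries (229 counts, at most 14), and ATCG00550 just outside with none (212 counts, at most 9). Of the loci that passed in one set only, ATCG00065 (224 counts), ATCG00930-ATCG00940-ATCG00950-ATCG00960 (40317), ATCG00940-ATCG00950-ATCG00960 (26897) and ATCG00950-ATCG00960 (18741) passed in the pools, while ATCG00700 (256), ATCG00870 (229) and ATCG01060 (590) passed in the single plants.

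Taken as a sum, the dominating family varied more between libraries than all other plastid loci together. Relative to the non-plastid counts it spanned a 17.6-fold range over the pools and 9.45-fold over the single plants, whereas all other plastid loci together spanned 5.36-fold and 3.41-fold. A sum follows its largest loci, so single loci of the rest could vary more than their sum. Repeated copies that could not be paired may lie on either side of this split. Within a genotype, the standard deviation of the log2 ratio was 1.03 for the family and 0.618 for the rest in the pools, and 0.684 and 0.355 in the single plants. Both moved together, with r = 0.830 over the pools and 0.805 over the single plants, given as a description since both are divided by the same non-plastid counts.

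**Figure D3:**
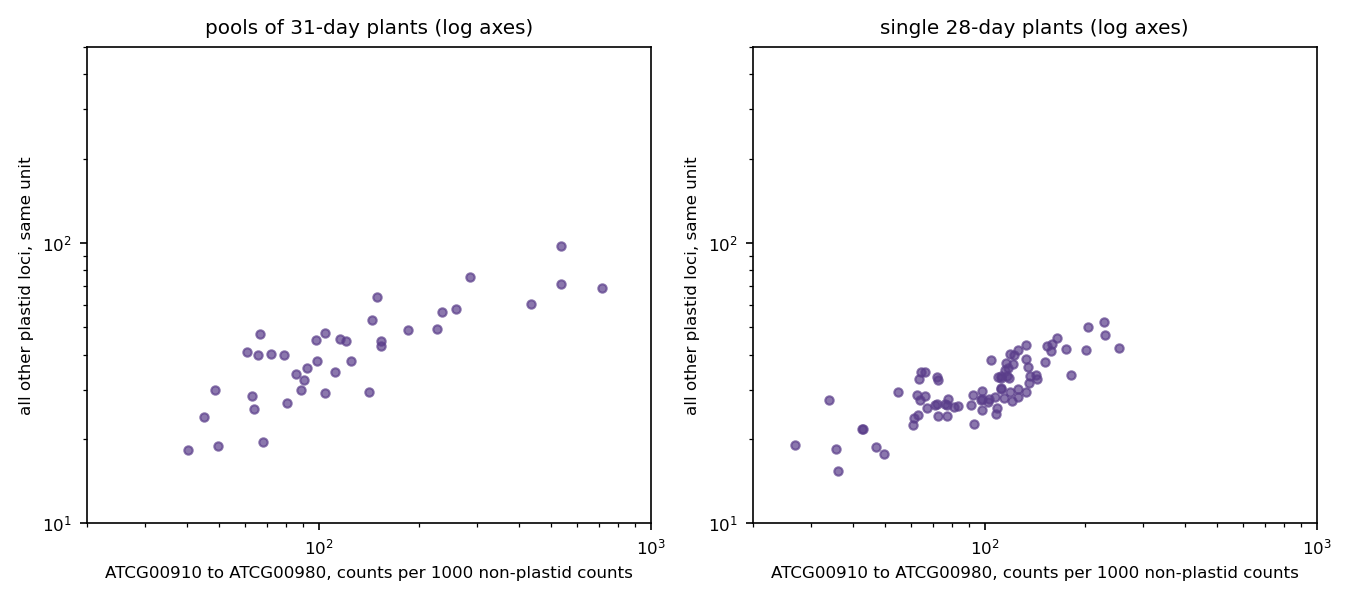
Counts of the family ATCG00910 to ATCG00980 (x axis) and of all other plastid loci (y axis), both per 1000 non-plastid counts on log axes, for the pools (left) and the single plants (right). Each point is a library. The points spread over a 17.6-fold range along x and 5.36-fold along y in the pools, against 9.45-fold and 3.41-fold in the single plants.

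Loci outside the family differed in how far they followed the share. Among members with a median of at least 100 counts in the pools, the steadiest within genotypes were ATCG00620 (standard deviation 0.400 of log2 counts per 1000000 non-plastid counts), ATCG00270-ATCG00280 (0.430), ATCG00740 (0.438), ATCG00220 (0.457) and ATCG00440 (0.495). Their slopes on the log2 plastid ratio were 0.18, 0.16, 0.09, 0.27 and 0.18, against 1.07 for the leading locus ATCG00930-ATCG00940-ATCG00950-ATCG00960-ATCG00970. The same 5 loci were among the 6 steadiest in the single plants, with standard deviations of 0.299 for ATCG00740, 0.329 for ATCG00270-ATCG00280, 0.332 for ATCG00440, 0.362 for ATCG00220 and 0.371 for ATCG00620. Not all loci outside the family were steady. ATCG01180 had a standard deviation of 1.13 and a slope of 0.85 in the pools, against 0.977 and 1.07 for the leading locus. In the single plants ATCG01180 had 0.936 and 1.38, against 0.696 and 1.18. The slope is a description, because the plastid counts contain the locus itself.

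In counts per 1000000 non-plastid counts, called the normalised count from here on, the leading locus ATCG00930-ATCG00940-ATCG00950-ATCG00960-ATCG00970 ran from 37942 to 522660 over the pools, with 63025, 52696 and 204210 in WT. ATCG00220 stayed between 4850 and 16875 over the same libraries. ATCG00740 stayed between 679 and 2907, and was highest in ddm1 cdca7β-1 replicate 1. The leading locus thus varied far more than ATCG00220 and ATCG00740, which were among the steadiest loci. Among members with a median of at least 100 counts it ranked 24 from the steadiest, with a standard deviation within genotypes of 0.977. ATCG01180, outside the family, had a larger one of 1.13. The WT libraries of the leading locus spanned several of the mutant levels.

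**Figure D4:**
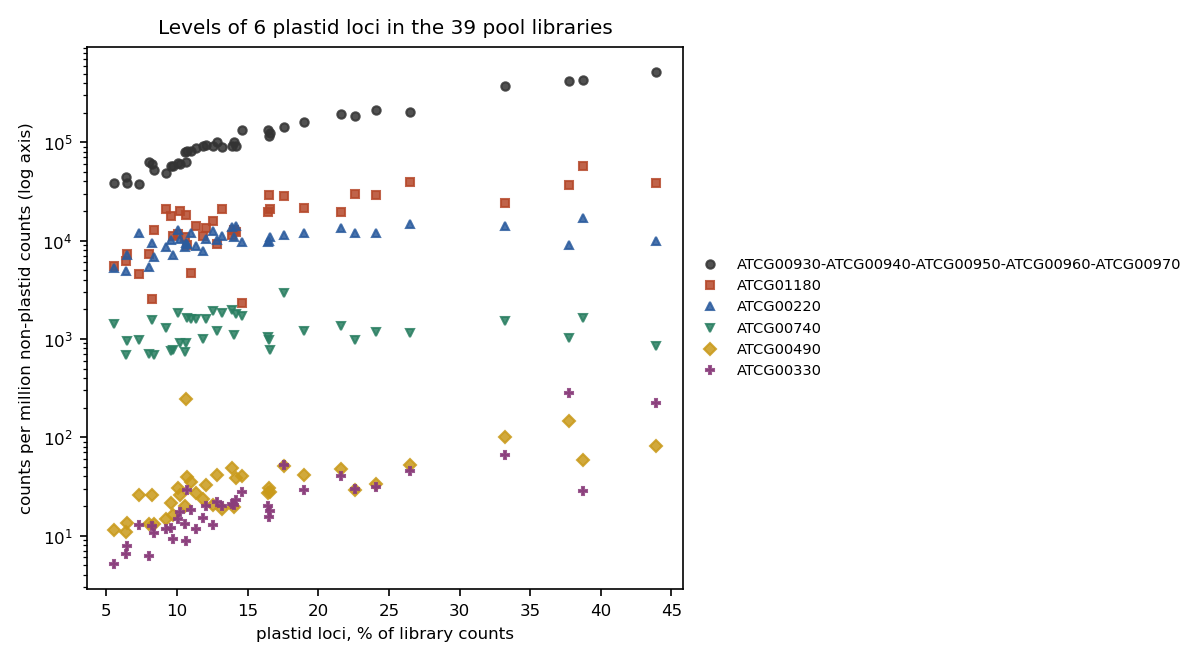
Level of 6 plastid loci in the 39 pool libraries, in counts per 1000000 non-plastid counts (y axis, log scale), against the plastid share of the library (x axis, percent of all counts). Each point is a library and each symbol a locus. The leading locus rises from 37942 to 522660 while ATCG00220 stays between 4850 and 16875, and ATCG00490 stands out at 246.7 in WT replicate 1.

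High-share libraries were not all high in the same way. Over the 59 pool members with a median of at least 20 counts, the median deviation from the set's median level was +1.99 (log2) in ddm1 cdca7α-2 replicate 3, where 47 members lay more than 1 above. It was +1.46 with 40 members in cdca7α cdca7β-2 replicate 1, which had the larger share, and +1.16 with 31 members in first-generation ddm1 replicate 2. WT replicate 3 had +0.85 with 25 members, and WT replicates 1 and 2 had -0.87 and -1.05, so the WT libraries lay on both sides of the set's median.

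The genotype test asked for each locus whether it differed among the genotypes of a set. In the pools 34 of 90 members (37.8%) passed at an adjusted p of at most 0.1 (edgeR quasi-likelihood F-test), beside 27.7% of all features. In the single plants 4 of 89 (4.49%) passed, beside 10% of all features. The pool count changed with the scaling and with single libraries. Scaled to the plastid total of each library it was 1. Without ddm1 cdca7α-2 replicate 3 it was 5, and without WT replicate 3 it was 59. Only ATCG00330, ATCG00560, ATCG00740 and ATCG00780 passed in every fit that left out 1 library.

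The smallest p among all members in the pool genotype test was that of ATCG00780 (F-test, adjusted p = 0.000461). It had 5, 5 and 14 counts in the WT pools and 13 and 122 in ddm1 cdca7α-2. ATCG00330 had 24, 30 and 138 counts in WT, 56 and 739 in ddm1 cdca7α-2 and 553 and 104 in cdca7α cdca7β-2 (adjusted p = 0.00655). ATCG00560 had 8, 9 and 30 counts in WT and 35 and 41 in ddm1 cdca7α-2 (adjusted p = 0.00669). ATCG01270 (2, 3 and 41 counts in WT against 15 and 334, adjusted p = 0.00670) and ATCG00770 (1, 4 and 34 against 16 and 179, adjusted p = 0.00928) followed. Neither ATCG01270 nor ATCG00770 passed in every fit that left out 1 library. In ATCG00780 and ATCG00330 a single library stood far above its partner, while in ATCG00560 both libraries exceeded WT.

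Against WT, 57 of the 1350 pairs of member and genotype in the pools were called (adjusted p of at most 0.1 and a log2 fold change of at least 1 in size). Of these 56 were higher and 1 was lower, that is 4.22% beside 8.7% of all features in the same 15 comparisons (5.93% higher and 2.77% lower). They fell on 46 loci, and 9 of the 15 genotypes had no call. The double mutants cdca7α cdca7β-1 and cdca7α cdca7β-2 were among these, with median log2 fold changes of -0.69 and 1.52 over the members. In cdca7α cdca7β-2, 88 of 90 were above 0 and 15 had an unadjusted p under 0.05 (edgeR quasi-likelihood test). Loci of the same libraries are not independent replicates. Median deviations from the set's median level were +1.46 in its replicate 1 and +0.39 in its replicate 3. Scaled to the plastid total, the median log2 fold change of cdca7α cdca7β-2 was -0.27.

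Of the 57 calls, 45 were in ddm1 cdca7α-2, all higher, beside 9.32% of all features higher in that comparison. Its median member had a log2 fold change of 2.29, and all features one of -0.02. The 45 included each of the 6 loci named in RefSeq. The log2 fold change was 2.78 for ATCG01310, ribosomal protein L2 (SE 0.94, adjusted p = 0.0464), for ATCG00660 (ribosomal protein L20) 3.89 (SE 1.101, adjusted p = 0.0165), and for ATCG00670 (CLP P) 2.23 (SE 0.71, adjusted p = 0.0348).

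The sizes of these 45 differences depended largely on 1 library. In ddm1 cdca7α-2, replicate 3 was above replicate 2 for 42 of the 45 loci, with a median ratio of 3.44, and replicate 2 lay below the highest WT library for 24. Both libraries lay above all WT libraries for 19. Without replicate 3 the genotype has 1 library, which is then assumed to vary like those of the other genotypes. In that fit 0 of the 45 remained called, the median log2 fold change of all 90 members was 0.68 in place of 2.29, and the calls over all genotypes fell to 15. Some loci kept much of their difference there: ATCG00440 had a log2 fold change of 1.44 (adjusted p = 0.108) and ATCG00740 one of 1.29 (adjusted p = 0.141), both with replicate 2 above replicate 3, while ATCG00330 fell to 0.05 (adjusted p = 0.991). ATCG00660 had 24, 17 and 108 counts in WT against 73 and 689 in this genotype. ATCG01290-ATCG01300-ATCG01310 had 959 counts in replicate 3 and none in replicate 2 or in WT. The overlapping name ATCG01300-ATCG01310 had 0 in replicate 3, 113 in replicate 2 and 46, 43 and 188 in WT. The division of reads between these names is uncertain, so that call cannot be read as a transcript absent from WT. The mitochondrial percentage of replicate 3, 0.393%, was also above the 0.205% of replicate 2, and its part in the result was not tested.

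**Figure D5:**
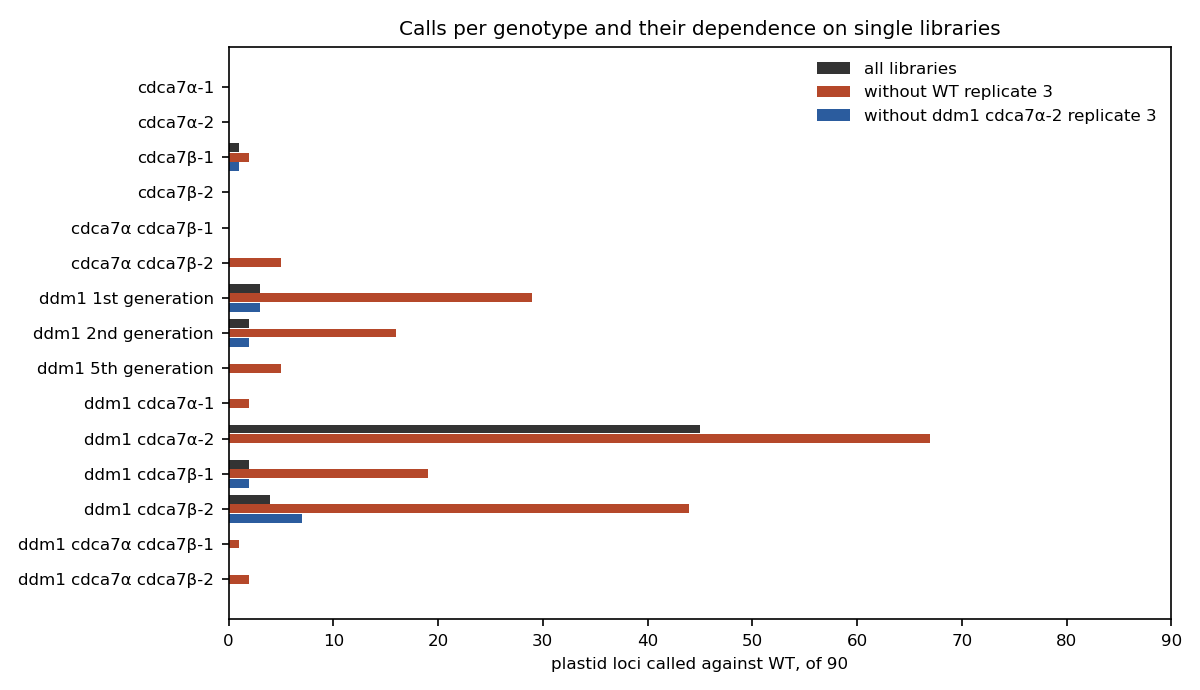
Number of plastid loci called against WT, of 90 (x axis), in each mutant genotype of the pools (y axis). Bars give the fit with all libraries, without WT replicate 3 and without ddm1 cdca7α-2 replicate 3. The 45 calls in ddm1 cdca7α-2 become 0 without its replicate 3, and the total over genotypes rises from 57 to 192 without WT replicate 3.

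The remaining calls were few and mostly in ddm1 genotypes. ATCG00740 was called higher in 5 genotypes, more than any other locus, each time against the same 3 WT libraries. It had 915, 679 and 1161 normalised counts in WT, 1628 and 1568 in first-generation ddm1, 1575 and 1627 in second-generation ddm1, and 2907, 1424 and 1794 in ddm1 cdca7β-1. All libraries of these 3 genotypes exceeded all WT libraries. Its log2 fold changes against WT were 1.101 (SE 0.41, adjusted p = 0.0673), 1.21 (SE 0.41, adjusted p = 0.0456) and 1.38 (SE 0.38, adjusted p = 0.0103), beside 9.7%, 10.2% and 10.5% of all features called higher there. In fifth-generation ddm1 it had 1814, 1205 and 991, with a log2 difference of 0.75 (SE 0.37, adjusted p = 0.232). The ddm1 cdca7α-1 libraries, at 970 and 1084, lay within the WT range. Some libraries with DDM1 were also high, at 1941 in cdca7β-1 replicate 3 and 1830 in cdca7β-2 replicate 2. Their partners had 1054 and 692 in cdca7β-1 and 776 in cdca7β-2. Each of the calls of ATCG00740 was lost in at least 1 fit that left out a library, with adjusted p of up to 0.217 for first-generation ddm1, 0.210 for second-generation ddm1 and 0.11 for ddm1 cdca7β-1. Its log2 fold changes in those fits stayed between 0.95 and 1.45, 1.06 and 1.55, and 1.01 and 1.73.

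ATCG01130 was called higher in 4 genotypes. Its level was 25, 21 and 77 counts in WT, 98 and 243 in second-generation ddm1 (log2 fold change 2.19, SE 0.87, adjusted p = 0.0946) and 396, 28 and 94 in ddm1 cdca7β-1 (2.04, SE 0.81, adjusted p = 0.0836). The latter libraries overlapped WT, and the call in second-generation ddm1 was lost in 19 of the 39 fits that left out a library. First-generation ddm1 also had higher ATCG00440 and ATCG00730, with 449, 270 and 446 normalised counts for ATCG00440 in WT against 923 and 532, and 1, 2 and 21 counts for ATCG00730 in WT against 30 and 16. In ddm1 cdca7β-2 the calls were ATCG00740, ATCG00790, ATCG00800 and ATCG01130, beside 11.6% of all features. For ATCG00800, WT had 55.6, 45.5 and 149 normalised counts and ddm1 cdca7β-2 had 264, 179 and 342, with no overlap.

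The 1 lower call was ATCG00490 in cdca7β-1 (log2 fold change -2.29, SE 0.76, adjusted p = 0.0802), beside 0.925% of all features lower there. WT had 246.7, 13.2 and 52.7 normalised counts and cdca7β-1 had 27.1, 10.7 and 20.6, so that WT replicate 1 alone was far above, and without it the log2 fold change was -1.03 and not called. In the single plants the same locus stood out in another library, cdca7α-2 replicate 3, with 537 normalised counts against 97.9 and 61.4 in its partners and 54.7 to 93.5 in WT.

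Scaled to the plastid total of each library, which asks only about the makeup of the plastid counts, the 57 calls became 2. They were ATCG00730 higher in ddm1 cdca7α-1 (log2 fold change 2.84, SE 0.77, adjusted p = 0.1, at the threshold) and ATCG01180 lower in ddm1 cdca7β-2 (-2.01, SE 0.45, adjusted p = 0.0118). ATCG01180 had 18152, 12825 and 39362 normalised counts in WT and 2313, 4699 and 23957 in ddm1 cdca7β-2.

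With ddm1 of the nearest generation as the reference, none of the 540 pairs of member and ddm1 cdca7 genotype was called by edgeR's quasi-likelihood test, beside 0.00836% of all features. At an unadjusted p under 0.05 there were 22 pairs, DESeq2 also called 0, and edgeR without the filter on low counts called 87. The median member of ddm1 cdca7α-2 had a log2 fold change of 1.23 against first-generation ddm1, with 81 of 90 above 0. That of ddm1 cdca7α cdca7β-1 had -0.63 against fifth-generation ddm1, with 5 of 90 above 0. These counts are across loci of the same libraries, which are not independent replicates.

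In the single plants no member was called by edgeR in cdca7α-2, cdca7β-1 or cdca7α cdca7β-3 against WT, beside 0.573% of all features. There were 5 of 267 pairs at an unadjusted p under 0.05, and DESeq2 called 3. The median member had log2 fold changes of -0.26, 0.34 and 0.02. In the transgenic groups against their untransformed background no member was called in 13 comparisons either, beside 0.181% of all features, with 64 of 1157 pairs at an unadjusted p under 0.05 and 7 called by DESeq2. The largest median log2 fold change was 0.75, in cdca7α-2 with p6966, where 23 of 89 members had an unadjusted p under 0.05. Its plastid shares were 11.1%, 12.5%, 14.4%, 21.9% and 14.6%, against 11.5%, 6.19% and 12.9% in untransformed cdca7α-2. Here too, loci of the same libraries are not independent replicates.

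The 4 members that passed the genotype test in the single plants were rare names. ATCG00940-ATCG00950-ATCG00960-ATCG00970 had counts in only 11 of the 82 libraries, led by 8970 in cdca7α-2 with p6966 d26nt replicate 1 and 7387 in cdca7α-2 with p6966 replicate 4. ATCG00920 had counts in 8 libraries, with 2154 in cdca7α cdca7β-3 with dCter replicate 1 and then 1048 and 819 in the same pair. ATCG00950-ATCG00960-ATCG00970 had counts in 3 libraries, with 905 and 1856 in that pair. ATCG01250 had counts in 16 libraries, at most 53 in one. In each pool library either ATCG01250 or ATCG00890 had 0 counts, for example 19 and 0 in WT replicate 1, and 0 and 38 in WT replicate 3. The division of reads between these names was not tested, so the values of ATCG01250 are uncertain. Without that pair of libraries, a fit chosen after the data had been seen, the count of 4 became 2.

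Among nuclear genes for plastid gene expression, the list of 20 for plastid transcription (sigma factors, phage-type polymerases and PAPs) had 19 of 300 pairs of gene and genotype called higher against WT in the pools and none lower, beside 5.93% of all features higher. That count lies near the share of all features. All 19 were PAPs, which make up most of the list, and 7 of them were in cdca7β-1. The share of all features called higher in that genotype is not given here. PAP5 and PAP6, which associate with the plastid-encoded polymerase, had log2 fold changes of 2.14 and 2.23 in cdca7β-1 and 1.77 and 1.80 in cdca7α-2. No plastid locus was called higher in these genotypes. PAP5 was also called higher in ddm1 cdca7α-2 (1.14), where 45 plastid loci were called higher. PAP6 was called higher in first-generation ddm1 (1.28), where 3 plastid loci were. A relation between PAP and plastid calls was not tested. Of the 4 nuclear genes for plastid RNA decay, RNJ, encoding ribonuclease J, was called higher in cdca7β-1 only (1.13, SE 0.28, adjusted p = 0.0165). No gene of either list was called in the single plants or against ddm1.

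Senescence markers were also called lower than in WT in the pools, more often than all features. Of the senescence list 20 of 60 pairs of gene and genotype were called lower, beside 2.77% of all features. Of the photosynthesis list 17 of 210 were called higher, on 5 of 14 genes, beside 5.93% of all features. That count lies near the share of all features. Of these 17, 1 was in cdca7β-1 and the others in ddm1 genotypes. In first- and second-generation ddm1, 9.7% and 10.2% of all features were called higher. SGR1, a regulator of chlorophyll breakdown, was lower in 12 of 15 genotypes and SEN1 in 7, and RBCS1A, a small subunit of Rubisco, was higher in 8. All 15 comparisons share the same 3 WT pools, so their calls are not independent of each other. The senescence list took 0.254%, 0.627% and 0.139% of nuclear counts in the WT pools, among the higher values of the set (range 0.0217% to 0.627%). In ddm1 cdca7α-2 it took 0.0434% and 0.0246%, below all WT libraries. Its part in the plastid calls was not tested.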

How the data were processed

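The authors' deposited files hold expected counts (estimated counts) on the sense strand, without normalization. Per the methods, reads were collapsed by molecular identifier, mapped to TAIR10 with STAR 2.7.11a and counted with Salmon 1.10.1 on AtRTD3 transcripts and TAIR10 transposable elements. Transcripts were summed per locus and rounded. All libraries of a set entered 1 fit of edgeR 4.0.16 (quasi-likelihood test, TMM scaling, R 4.3.3), limited to features with at least 10 counts in 3 libraries. P-values were adjusted over these features by Benjamini-Hochberg, and calls needed adjusted p ≤ 0.1 with a log2 change of 1 or more in size. Salmon divides reads among overlapping annotations, so values within a family are uncertain. Values of repeated copies that could not be paired may be uncertain too. Alternatives were other scalings, DESeq2 1.42.0, no filter, a replicate block and single libraries left out. The code was tested on simulated data. Whether libraries of a genotype came from separate sowings was not given, so p-values measure the spread between them.

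Members and lists were chosen with earlier results of these data known. Named loci are the 5 with the largest WT share and the 5 with the smallest genotype p per set, those with most calls, those in lists of 5 or fewer, and those nearest the threshold. Rubisco, photosystem II and ribosomal RNA loci were also meant to be named, but the references pair only 6 members with a name, so they are not identified here, and no sequences are given.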

Additional observations from a re-analysis of the deposited data

Results flagged for a closer look

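Among the single plants 156 combinations of group and measure were tested for a library standing far from the rest, and 26 were flagged. Pool genotypes, with at most 3 libraries, could not be tested this way. Chance flags about 1 in 20 groups where values vary evenly, but most flags fell on ATCG00920, ATCG00940-ATCG00950-ATCG00960-ATCG00970, ATCG00950-ATCG00960-ATCG00970 and ATCG01250, which have 0 counts in most libraries and were named for their small genotype p, so the number of flags cannot be read against that rate. Levels are counts per 1000000 non-plastid counts, and no explanation was tested.

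In cdca7α cdca7β-3 with p6966 d26nt, replicate 5 had a plastid share of 22.9%, against 8.04% to 14.0% in the others. It also had 216120 for ATCG00930-ATCG00940-ATCG00950-ATCG00960-ATCG00970, 20941 for ATCG00920-ATCG00930, 10534 for ATCG00270-ATCG00280 and 83.8 for ATCG00920. In cdca7α-2 with p6966, replicate 4 had 9889 for ATCG00270-ATCG00280, 11289 for ATCG01180, 4674 for ATCG00940-ATCG00950-ATCG00960-ATCG00970, 663 for ATCG00920 and 1174 for ATCG00950-ATCG00960-ATCG00970. In cdca7α-2 with p6966 d26nt, replicate 1 had 4314, 394 and 435 for the last 3 of these loci. In cdca7α cdca7β-3 with C183S C209S, replicate 6 had 1365, 61.2 and 135 for the same loci.

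ATCG00940-ATCG00950-ATCG00960-ATCG00970 also stood apart at 1189 in dNter replicate 4, 73.9 in cdca7α cdca7β-3 replicate 3 and 153 in cdca7β-1 replicate 2. ATCG00920 did so at 92.6 in dNter replicate 4, 38.0 in cdca7β-1 replicate 2 and 805 in dCter replicate 1. ATCG00270-ATCG00280 was low, at 3238, in dCter replicate 5. ATCG01250 stood apart at 4.31 in cdca7α-2 with p6966 d4nt replicate 3, 4.95 in cdca7α cdca7β-3 with CDCA7 replicate 2 and 4.72 in cdca7β-1 replicate 4. Its division of reads with ATCG00890 was not tested.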

How the results depend on the processing

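Under the other settings, 472 values for the comparisons stayed the same and 21 moved. For a count, the same means equal or close in fold to the main count, and for a test, on the same side of its p limit. For single loci 1030 values stayed called and 119 were no longer called. The pool genotype test (34 loci) gave 1 locus after scaling to the plastid total, 86 without the filter, 21 with the replicate block and 5 to 59 with 1 library left out. The 57 pool calls against WT became 2 on the plastid total, 374 without the filter and 15 to 192 with 1 library left out (15 without ddm1 cdca7α-2 replicate 3, 16 without WT replicate 2, 29 without WT replicate 1, 192 without WT replicate 3). Against ddm1, 0 calls became 87 without the filter. In the single plants the genotype test (4 loci) gave 9 on the plastid total, 0 with the replicate block, 2 without the pair of libraries named for the rare loci, and 3 to 5 with 1 of the 12 libraries of WT, cdca7α-2 and cdca7α cdca7β-3 left out. The other single plants, those of cdca7β-1 included, were not left out singly in the fits across all features. Untransformed mutants (0 calls) gave 1 on the plastid total, 3 with DESeq2 and 0 to 1 with 1 of those 12 left out, and transgenic groups (0 calls) gave 4 on the plastid total and 7 with DESeq2. Of 5 library measures, 2 had a Pearson relation to the share in the single plants at an adjusted p of 0.05, and 1 without the 2 farthest libraries, where the rank correlation of the senescence list still passed. The cause of these changes was not tested. Replicate numbers did not pair libraries: deviations of same-numbered libraries had a median correlation of -0.0020 in the pools and -0.0004 in the single plants, so the block only shares a number.

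Without the family ATCG00910 to ATCG00980, chosen after the data had been seen, genotype accounted for 25.7% of the sum of squares of the share in the pools (permutation p = 0.896) and 18.6% in the single plants (p = 0.543). With 2 or 3 pool libraries in a genotype, a single library decides a count. Poly(A) capture and undivided tags limit comparisons between loci, and loci with few counts carry wide counting error.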
